A study of Mus musculus with 9 samples.

Results

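The motile cilia axoneme genes are 85 mouse genes, mainly of families named for products that build, assemble or switch on the beating cilium. Membership follows the name, and the function of each gene was not checked. They were taken by name from the 57010 genes of each deposited table: every symbol that starts with Dnah, Cfap, Rsph, Dnaaf or Tekt followed by a number, and Foxj1, Ccdc39, Ccdc40, Tppp3, Dynlrb2, Dnali1, Dnai1, Dnai2 and Mlf1. Sorted by role, 15 were axonemal dynein heavy chains (5 of the outer and 10 of the inner arm or other rows), 4 intermediate or light chains, 2 ruler proteins, 7 radial spoke proteins, 39 Cfap proteins, 5 tektins, 10 dynein assembly factors, and 3 lay outside the axoneme core (Foxj1, Tppp3 and Mlf1). The name rule therefore also holds genes of the cytoplasm and nucleus. RNA was sequenced from 9 libraries of mouse organoids, which are tissue-like structures grown in culture: 3 of small cell lung cancer (SCLC) organoids treated with an agent the labels call GSK, 3 of SCLC organoids and 3 of normal lung organoids (Normal). The sources used here give neither the identity, dose and time of GSK nor strain, age or genotype, and do not say whether the libraries of a group came from separate animals or cultures, so p-values measure only the spread between these libraries. The deposited values compare 3 libraries with 3, GSK against a control that matched the SCLC group, and SCLC against Normal. No value of a single library was used, so overlap between libraries cannot be given and the spread is seen only in the authors' standard errors.

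A motile cilium is a ring of microtubule doublets around a central pair. Outer and inner dynein arms pull neighbouring doublets past each other, radial spokes and the central pair regulate them, and ruler proteins set the repeat along the doublet. Tektins and many Cfap proteins lie inside or on the doublets, and assembly factors fold the dynein arms in the cytoplasm before transport. In the airway this machinery belongs to multiciliated cells, in which the transcription factor Foxj1 switches on much of it together with RFX factors, which bind an element called the X-box. Many of the same proteins build the sperm flagellum.

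Levels below are means of normalized counts in each group, implied by the mean and the fold change in the authors' deposited tables. They carry no error of their own. Fold changes are log2 values, each ± its deposited standard error, with adjusted p from the authors' deposited tables and a threshold of 0.05. Where one group lay under a floor of 3 counts in the group (a mean of 1), the change is given as "at least", against that floor. Summed over all genes, the implied means in the authors' deposited tables were 31919648 in GSK and 45333553 in SCLC of the same table, and 42007045 in SCLC and 44706821 in Normal of the other table. In bulk libraries, fewer cells of a type and less RNA per cell cannot be told apart. All 11 neuroendocrine markers were higher in SCLC than in Normal per the authors' deposited table, which matches these 2 labels. Among them, the factor Insm1 had 17354 in GSK and 66876 in SCLC, and was under the floor in Normal, in the authors' deposited tables. After GSK, 5 of the 11 fell and 2 rose, per the authors' deposited table. These markers therefore do not check the GSK label.

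After GSK most axoneme genes stood higher than in SCLC organoids without it. Of 79 members with an adjusted p per the authors' deposited table for GSK, 54 rose, 3 fell and 22 did not pass. The median log2 fold change of the 79 members was 2.51, against 0.24 over all 28376 genes tested, from the authors' deposited table; it was 2.37 with the 14 tested members under the floor in a group set at their bound. Of all genes tested, 21.6% rose and 15.5% fell per the authors' deposited table. Among genes with a mean from 10 to 500, 37.4% rose and 10.9% fell, from the authors' deposited table. Of the 56 members tested in that range of means, 47 rose and 0 fell per the authors' deposited table (50 and 1 at an unadjusted p under 0.05). Of the remaining members, 4 were listed at 0, and Dnah1 and Rsph6a had a fold change without an adjusted p.

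The members divided in SCLC against Normal. Of 78 tested per the authors' deposited table, 8 rose, 32 fell and 38 did not pass, with a median log2 fold change of -1.0 (also with bounds) against 0.10 over all 24719 genes tested. Over all genes tested, 25.3% rose and 25.1% fell per the authors' deposited table. Within the range of means from 10 to 500, 26.6% of all genes rose and 31.2% fell per the authors' deposited table. The 46 members tested in that range held 6 that rose and 22 that fell per the authors' deposited table. Dnah1 and Cfap221 had no adjusted p there, and Cfap107, Cfap141, Dnaaf4, Dnaaf6 and Tekt3 were listed at 0. Both comparisons share the SCLC libraries, so their values are set side by side below and are not independent of each other. A member passes the authors' filter on low means partly through the group in which it is high, so these counts describe the members tested and not all 85.

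**Figure D1:**
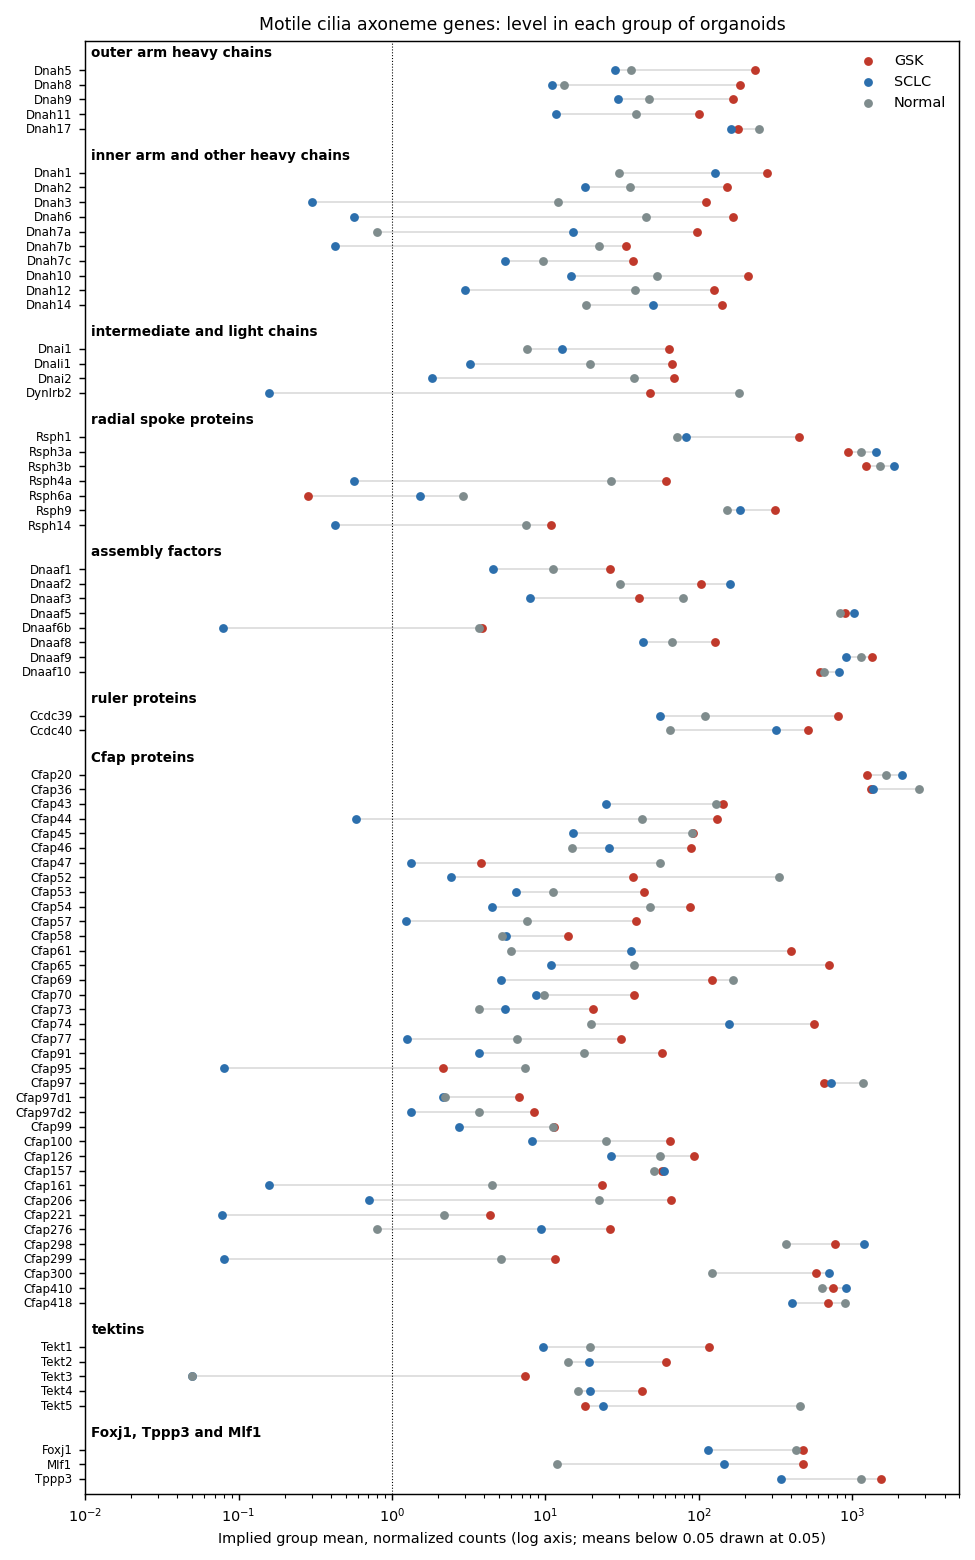
Implied mean of normalized counts (log axis) in GSK, SCLC and Normal organoids for the 81 axoneme genes with any counts in GSK, ordered by role; points are group means without error, the dotted line marks the floor of 1, and GSK means were brought to the scale of the other table. Most SCLC points lie to the left of the GSK points, and the abundant genes Rsph3a, Rsph3b and Cfap20 show all groups close together.

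Promoter sequences are shown first for members that carry an X-box, because this element is the known link between RFX factors and ciliary genes. In the RefSeq promoter table of build GRCm38.p6, which holds 250 bases before and 50 after each start, 70 of the 85 members matched an entry. The X-box consensus, an inverted pair of short arms with a short spacer, searched on both strands, was found in 13 of these 70 members (18.6%), against 474 of 27025 genes with an entry (1.75%). The word GTTGCC, one arm of many X-boxes, was found on either strand in 28 of the 70 members (40.0%) and in 14.1% of all genes. The forkhead word TGTTTAC was found in 5 members (7.14%) and in 4.05% of all genes. A match is a description of these letters and not a bound site. Shown are the 11 members whose match lies wholly before the start, with the match nearest to the start for Cfap298, which has another; those of Rsph3b and Dnaaf6b reach past the start. Capitals mark the match below, and each stretch runs 5′ to 3′ on the strand of its gene, with up to 30 bases on either side and no base past the start. Of these genes, Dynlrb2, Dnai1, Dnai2, Cfap44, Cfap45 and Tekt2 rose after GSK per the authors' deposited table, Dnaaf2, Cfap58, Cfap99 and Cfap298 did not pass, and Dnaaf6 was listed at 0. Of the pair not shown, Rsph3b fell and Dnaaf6b did not pass per the authors' deposited table.

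The stretches lie at chr8:116504934-116505006 (+) for Dynlrb2, chr11:114727356-114727418 (+) for Dnai2, chr4:41569745-41569793 (+) for Dnai1, chr16:44394742-44394798 (+) for Cfap44, chr1:172521081-172521129 (+) for Cfap45, chr4:126325689-126325747 (-) for Tekt2, chr12:69198430-69198476 (-) for Dnaaf2, chr19:47937623-47937695 (+) for Cfap58, chr5:34288600-34288664 (+) for Cfap99, chr16:90934874-90934948 (-) for Cfap298 and chr1:31222750-31222823 (+) for Dnaaf6, in GRCm38.p6 with the strand in parentheses.
Dynlrb2: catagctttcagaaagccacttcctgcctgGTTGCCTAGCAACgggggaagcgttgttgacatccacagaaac
Dnai2: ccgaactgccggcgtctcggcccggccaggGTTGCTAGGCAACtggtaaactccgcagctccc
Dnai1: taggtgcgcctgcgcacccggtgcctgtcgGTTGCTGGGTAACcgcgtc
Cfap44: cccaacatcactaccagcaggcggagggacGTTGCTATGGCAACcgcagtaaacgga
Cfap45: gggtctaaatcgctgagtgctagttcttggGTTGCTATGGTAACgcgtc
Tekt2: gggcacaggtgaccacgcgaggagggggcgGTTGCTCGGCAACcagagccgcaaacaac
Dnaaf2: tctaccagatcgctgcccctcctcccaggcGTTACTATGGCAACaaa
Cfap58: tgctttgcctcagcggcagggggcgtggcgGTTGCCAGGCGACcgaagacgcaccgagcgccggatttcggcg
Cfap99: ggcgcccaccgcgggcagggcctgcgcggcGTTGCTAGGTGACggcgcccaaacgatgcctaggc
Cfap298: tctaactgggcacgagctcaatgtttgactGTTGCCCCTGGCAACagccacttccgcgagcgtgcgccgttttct
Dnaaf6: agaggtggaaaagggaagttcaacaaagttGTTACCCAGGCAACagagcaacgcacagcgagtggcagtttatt
The matches shown are 13 to 15 bases long, the longest being that of Cfap298. Of the 13 members with a match, 12 were tested after GSK, and 6 rose and 1 fell per the authors' deposited table. Of the 57 members with an entry and no match, 52 were tested and 35 rose and 2 fell per the authors' deposited table. From the authors' deposited table, the median log2 fold changes were 2.16 and 2.66 with and without a match, and the difference was not tested.

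**Figure D2:**
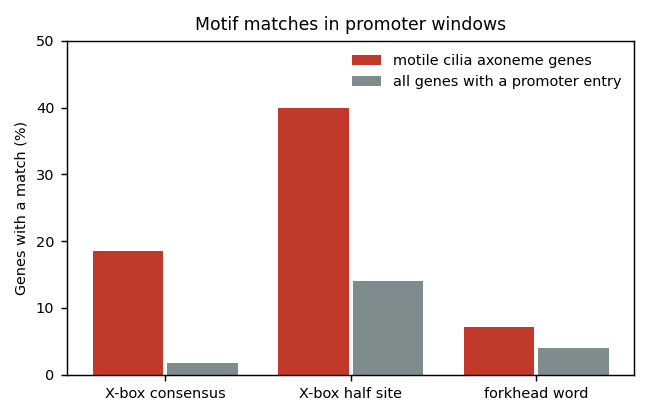
Share of genes (%) whose promoter window of 300 bases holds the X-box consensus, its arm GTTGCC or the forkhead word TGTTTAC, for the 70 members with an entry (left bars) and for all 27025 genes with an entry (right bars). The X-box consensus was found in 18.6% of members and 1.75% of all genes.

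Foxj1 (ENSMUSG00000034227), the forkhead factor that directs the multiciliated programme, averaged 515 counts in GSK and 124 in SCLC per the authors' deposited table. It rose after GSK by 2.05 ± 0.39 (adjusted p = 1.46e-06 per the authors' deposited table). Per the authors' deposited table for the other comparison, it averaged 116 in SCLC and 430.1 in Normal and fell (-1.90 ± 0.49, adjusted p = 0.000374). Tppp3, a tubulin-polymerizing protein abundant in ciliated cells, averaged 1656 in GSK and 373 in SCLC and rose (2.15 ± 0.44, adjusted p = 6.74e-06) per the authors' deposited table. Against Normal it fell, with 343 in SCLC and 1133 in Normal (-1.72 ± 0.34, adjusted p = 2.08e-06), per the authors' deposited table. Mlf1, a gene of ciliated cells first described in myeloid leukaemia, went the other way in SCLC against Normal. It had 147 in SCLC and 12 in Normal and rose (3.62 ± 0.76, adjusted p = 6.9e-06) per the authors' deposited table. It rose after GSK as well, with 519 in GSK and 158 in SCLC (1.71 ± 0.46, adjusted p = 0.000876), per the authors' deposited table.

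The outer dynein arm gives the cilium most of its power, and Dnah5, Dnah9 and Dnah11 are its heavy chains in the airway, while Dnah8 and Dnah17 are known from sperm. After GSK, 4 of the 5 rose per the authors' deposited table. Dnah5 averaged 252 in GSK and 30.7 in SCLC and rose by 3.04 ± 0.41 (adjusted p = 4.71e-12) per the authors' deposited table. Dnah9 rose to 179.5 in GSK, against 32.2 in SCLC (2.48 ± 0.37, adjusted p = 5.65e-10), and Dnah11 to 109 in GSK, against 12.6 in SCLC (3.10 ± 0.60), per the authors' deposited table. The sperm chain Dnah8 rose as well, to 199 in GSK, against 11.8 in SCLC (4.07 ± 0.60, adjusted p = 2.78e-10), per the authors' deposited table. Dnah17, the other sperm chain, had 194 in GSK and 174 in SCLC and did not pass (0.16 ± 0.52, adjusted p = 0.849) per the authors' deposited table.

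Against Normal, Dnah11 alone of these 5 fell per the authors' deposited table, with 11.7 in SCLC and 38.9 in Normal (-1.74 ± 0.60, adjusted p = 0.00883). That is 20% of the 5, where 25.1% of all genes tested fell, per the authors' deposited table. Dnah5 had 28.4 in SCLC and 36.2 in Normal (-0.35 ± 0.69, adjusted p = 0.696) per the authors' deposited table. The values of Dnah8 (-0.26 ± 0.95), Dnah9 (-0.67 ± 0.51) and Dnah17 (-0.60 ± 0.51) did not pass either per the authors' deposited table. Per kilobase of the longest transcript, Dnah17 had the highest level of the 5 in SCLC (10.9) and Normal (16.4), and Dnah5 in GSK (14.9), from the authors' deposited tables. The other chains had between 0.66 (Dnah8) and 2.15 (Dnah9) per kilobase in SCLC, from the authors' deposited table.

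The inner arms shape the beat. All 9 of their heavy chains tested rose after GSK per the authors' deposited table. In the 6 that were over the floor in both groups, log2 fold changes lay between 1.50 (Dnah14) and 5.41 (Dnah12), from the authors' deposited table. Dnah3 averaged 121 in GSK and lay under the floor in SCLC, at least 121-fold higher (adjusted p = 1.3e-12) per the authors' deposited table. Dnah6 had 181 in GSK and was likewise under the floor in SCLC, at least 181-fold higher (adjusted p = 1.4e-16), per the authors' deposited table. Dnah12 rose to 135 in GSK, against 3.17 in SCLC (5.41 ± 0.76), and Dnah10 to 225 in GSK, against 15.8 in SCLC (3.83 ± 0.45), per the authors' deposited table. Dnah2 rose to 165 in GSK, against 19.5 in SCLC (3.08 ± 0.40), per the authors' deposited table. Among the 9 chains, means ran from 36.4 (Dnah7b) to 225 (Dnah10) in GSK, and from under the floor to 54.2 (Dnah14) in SCLC, per the authors' deposited table.

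Against Normal, 5 of the 9 tested fell per the authors' deposited table. Dnah6 was at least 45-fold lower in SCLC (adjusted p = 6.85e-09) and Dnah3 at least 12-fold lower (adjusted p = 0.000709) per the authors' deposited table. Dnah12 had 2.98 in SCLC and 38.3 in Normal (-3.68 ± 0.89), and Dnah10 had 14.7 in SCLC and 53.8 in Normal (-1.88 ± 0.54), per the authors' deposited table. Dnah7a, Dnah7b and Dnah7c are close copies: up to 24.9% of the 100-base words of one transcript occur in another, so reads may be split among them and each value is uncertain. Dnah7b was at least 22.5-fold lower and Dnah7a at least 15.3-fold higher in SCLC than in Normal per the authors' deposited table. The call of Dnah7a (adjusted p = 0.047) ended without the filter on low means (adjusted p = 0.0638), computed from the authors' deposited table. After GSK, Dnah7a (2.66 ± 0.92), Dnah7c (2.78 ± 0.75) and Dnah7b (at least 36.4-fold) all rose per the authors' deposited table. Dnah1 had no p in either comparison: its fold changes were 1.15 ± 0.88 after GSK and 2.09 ± 1.03 against Normal per the authors' deposited table.

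**Figure D3:**
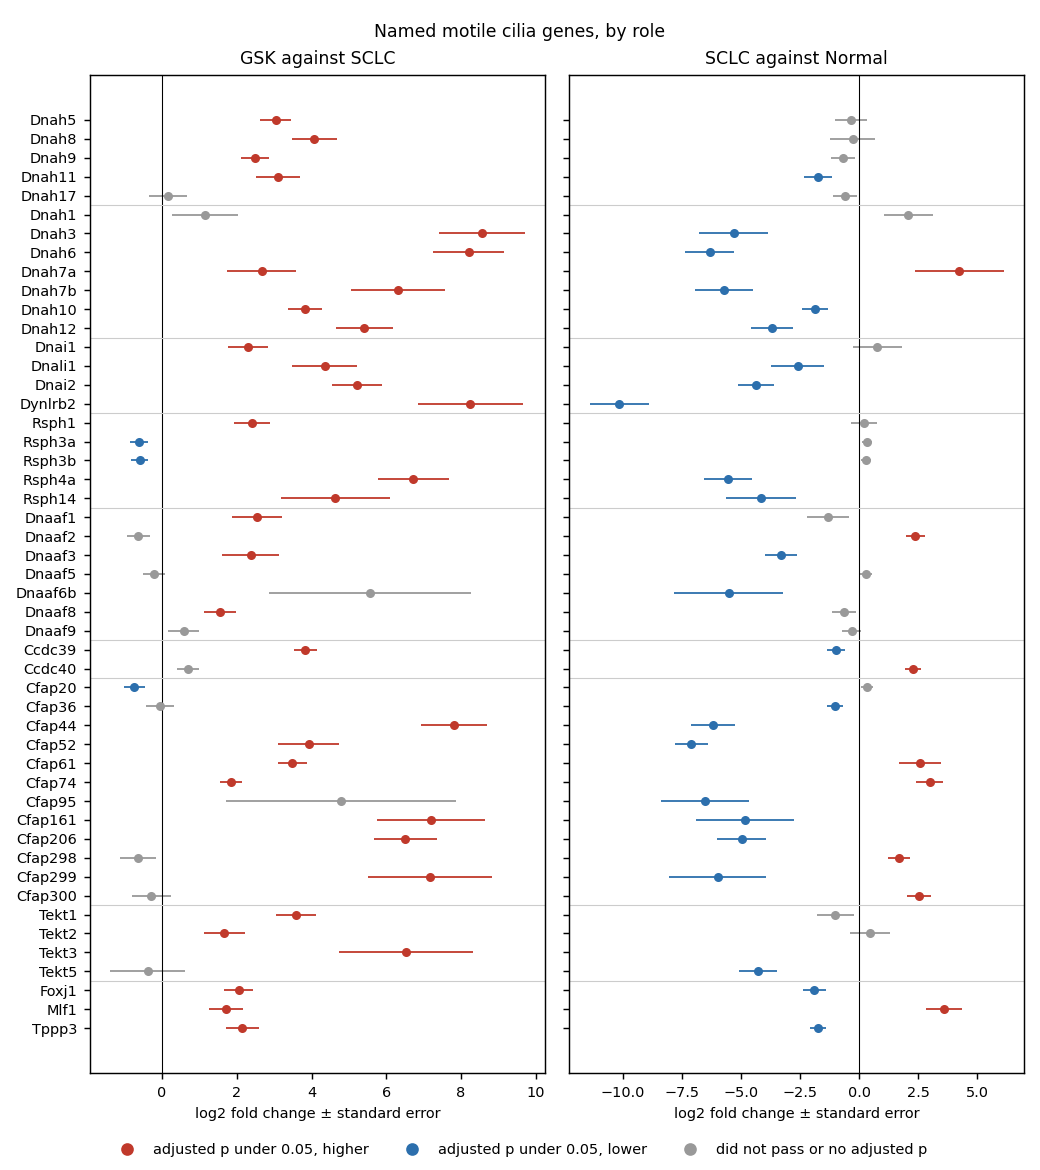
log2 fold change ± the authors' standard error of the named axoneme genes, by role, for GSK against SCLC (left) and SCLC against Normal (right); colour marks the direction of genes with an adjusted p under 0.05. Genes under the floor in a group show fitted values, which are not bounds. After GSK all called genes other than Rsph3a, Rsph3b and Cfap20 lie to the right of 0.

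Intermediate chains anchor the outer arm to the doublet, and light chains complete the arms. All 4 rose after GSK per the authors' deposited table. Dnai1 averaged 69.5 in GSK and 14.1 in SCLC (2.30 ± 0.54, adjusted p = 0.000113) per the authors' deposited table. Its partner Dnai2 averaged 74.5 in GSK and 2.0 in SCLC (5.22 ± 0.67, adjusted p = 1.91e-13) per the authors' deposited table. Dnali1, a light chain of inner arms, averaged 71.8 in GSK and 3.52 in SCLC (4.35 ± 0.86, adjusted p = 4.14e-06) per the authors' deposited table. Dynlrb2, a roadblock light chain of ciliated cells and testis whose X-box is shown above, had 52.1 in GSK and lay under the floor in SCLC, at least 52.1-fold higher (adjusted p = 5.5e-08), per the authors' deposited table.

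Normal organoids held 182 counts of Dynlrb2, and SCLC was at least 182-fold lower (adjusted p = 5.23e-15), per the authors' deposited table. Dnai2 fell to 1.83 in SCLC, against 37.8 in Normal (-4.37 ± 0.75, adjusted p = 3.12e-08), per the authors' deposited table. Dnali1 fell to 3.22 in SCLC, against 19.5 in Normal (-2.60 ± 1.12, adjusted p = 0.0405; 0.0549 without the filter on low means), from the authors' deposited table. The other intermediate chain, Dnai1, had 12.9 in SCLC and 7.55 in Normal and did not pass (0.77 ± 1.03, adjusted p = 0.554) per the authors' deposited table.

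Ccdc39 and Ccdc40 form the molecular ruler that spaces spokes and inner arms, and act as partners. Ccdc39 averaged 868 in GSK and 60.7 in SCLC and rose by 3.84 ± 0.31 (adjusted p = 6.68e-32), the smallest adjusted p of any member, per the authors' deposited table. Ccdc40 averaged 558 in GSK and 344 in SCLC and did not pass (0.70 ± 0.30, adjusted p = 0.0547) per the authors' deposited table. It passed when scaled to total counts (1.20, adjusted p = 0.000359) or with p-values readjusted over genes of mean 50 or more (adjusted p = 0.0411), from the authors' deposited table. Against Normal the partners moved in opposite directions. Ccdc39 fell, with 56.2 in SCLC and 110.5 in Normal (-0.98 ± 0.36, adjusted p = 0.0167), and Ccdc40 rose, with 319 in SCLC and 65.3 in Normal (2.29 ± 0.35, adjusted p = 6.51e-10), per the authors' deposited table. Per kilobase the 2 genes stood at 223 (Ccdc39) and 104 (Ccdc40) in GSK, 15.6 and 64.2 in SCLC, and 30.6 and 13.1 in Normal, from the authors' deposited tables.

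Radial spokes pass signals from the central pair to the arms. Rsph4a, a spoke head protein, averaged 65.9 in GSK and lay under the floor in SCLC, at least 65.9-fold higher (adjusted p = 4.75e-11), per the authors' deposited table. Rsph1, another head protein, rose to 482 in GSK, against 90.8 in SCLC (2.41 ± 0.48, adjusted p = 4.7e-06), and Rsph14 was at least 11.7-fold higher, per the authors' deposited table. Rsph9 had 336 in GSK and 202 in SCLC and did not pass (0.74 ± 0.33, adjusted p = 0.0634) per the authors' deposited table. The abundant copies Rsph3a and Rsph3b fell after GSK per the authors' deposited table, Rsph3a to 1018 in GSK, against 1550.1 in SCLC (-0.61 ± 0.24, adjusted p = 0.0352), and Rsph3b to 1325 in GSK, against 2012 in SCLC (-0.60 ± 0.23, adjusted p = 0.0254). Both calls ended under scaling to total counts (-0.10 for each), from the authors' deposited table. They share 60.6% and 60.1% of their 100-base words and may share reads. Against Normal, 2 of 7 (28.6%) fell, near the 25.1% of all genes tested that fell, per the authors' deposited table. Rsph4a was at least 26.9-fold lower and Rsph14 at least 7.52-fold lower in SCLC, per the authors' deposited table. Rsph1 had 83.2 in SCLC and 71.8 in Normal (0.21 ± 0.54, adjusted p = 0.766) per the authors' deposited table.

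The Cfap genes are the largest family of the set, named for cilia and flagella and varied in function. Of 37 tested after GSK, 24 rose, Cfap20 fell and 12 did not pass per the authors' deposited table, with a median log2 fold change of 2.51 (2.11 with bounds). Cfap44, of the tether that holds an inner arm, averaged 142 in GSK and was under the floor in SCLC, at least 142-fold higher (adjusted p = 4.43e-17), per the authors' deposited table. Its partner Cfap43 averaged 154 in GSK and 27 in SCLC (2.51 ± 0.43) per the authors' deposited table. Cfap206, which helps hold a radial spoke, was at least 71.3-fold higher, Cfap161 at least 25.3-fold and Cfap299 at least 12.5-fold, per the authors' deposited table. Cfap65, known from the sperm flagellum, reached 764 in GSK, against 11.6 in SCLC (6.04 ± 0.69, adjusted p = 5.61e-17), per the authors' deposited table. Cfap61, of the complex at the spoke base, rose to 432 in GSK, against 38.7 in SCLC (3.48 ± 0.39, adjusted p = 9.14e-18), per the authors' deposited table. Cfap54, of the central pair, rose to 95.1 in GSK, against 4.87 in SCLC (4.29 ± 0.59), per the authors' deposited table. Cfap52 and Cfap45, which lie inside the doublets, rose by 3.92 ± 0.80 and 2.62 ± 0.64 per the authors' deposited table. Cfap20, an abundant protein of the doublet, had 1357 in GSK and 2272 in SCLC and fell (-0.74 ± 0.28, adjusted p = 0.0264), a call lost when scaled to total counts (-0.24, adjusted p = 0.544), from the authors' deposited table.

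Of 36 Cfap genes tested in SCLC against Normal, 15 fell and 4 rose per the authors' deposited table. Cfap52 fell to 2.42 in SCLC, against 334 in Normal (-7.11 ± 0.70, adjusted p = 1.06e-22), per the authors' deposited table. Cfap69, of the central pair, fell to 5.14 in SCLC, against 166 in Normal (-5.01 ± 0.49, adjusted p = 1.49e-23), per the authors' deposited table. Cfap44 was at least 42.6-fold lower, Cfap206 at least 22.4-fold, Cfap95 at least 7.42-fold and Cfap299 at least 5.1-fold lower, per the authors' deposited table. The broadly expressed Cfap36 fell to 1359.9 in SCLC, against 2738 in Normal (-1.01 ± 0.34), per the authors' deposited table. The 4 that rose were Cfap61, the central pair protein Cfap74, and Cfap298 and Cfap300, which act in dynein arm assembly. Cfap74 had 157 in SCLC and 19.8 in Normal (2.99 ± 0.59, adjusted p = 1.54e-06), and Cfap300 had 705 in SCLC and 122 in Normal (2.53 ± 0.50, adjusted p = 2.3e-06), per the authors' deposited table. Cfap61 had 35.9 in SCLC and 6.02 in Normal (2.58 ± 0.88), and Cfap298 had 1198 in SCLC and 373 in Normal (1.68 ± 0.46), per the authors' deposited table. In the reference annotation, 53.6% of the exon bases of Cfap298 overlap a gene on the opposite strand, and whether counting used strand is not given in the sources used here. After GSK, Cfap74 rose to 612 in GSK, against 170.1 in SCLC (1.85 ± 0.30), while Cfap298 (-0.65 ± 0.48) and Cfap300 (-0.28 ± 0.51) did not pass, per the authors' deposited table.

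Tektins are filaments inside the doublets, and Tekt5 is known from sperm. After GSK 3 of 5 rose per the authors' deposited table. Tekt1 averaged 125 in GSK and 10.5 in SCLC (3.58 ± 0.54, adjusted p = 5.27e-10) per the authors' deposited table. Tekt2, whose X-box is shown above, averaged 66.1 in GSK and 20.8 in SCLC (1.67 ± 0.54, adjusted p = 0.00739) per the authors' deposited table. Tekt3 was at least 7.92-fold higher (adjusted p = 0.00134) in that table and listed at 0 per the authors' deposited table for the comparison with Normal. Tekt5 was an exception, with 19.4 in GSK and 25.4 in SCLC (-0.39 ± 0.99, adjusted p = 0.802) per the authors' deposited table. It was also the tektin that fell in SCLC against Normal, to 23.6 in SCLC, against 457 in Normal (-4.28 ± 0.81, adjusted p = 5.04e-07), per the authors' deposited table. Of the 4 tektins tested there, 25% fell, where 25.1% of all genes did, per the authors' deposited table. Tekt1 (-1.01 ± 0.79), Tekt2 (0.46 ± 0.83) and Tekt4 (0.25 ± 0.75) did not pass there per the authors' deposited table.

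Dynein assembly factors work in the cytoplasm. Of 8 tested after GSK, 5 did not pass and 3 (37.5%) rose per the authors' deposited table: Dnaaf1 (2.53 ± 0.67), Dnaaf3 (2.37 ± 0.75) and Dnaaf8 (1.54 ± 0.42). Of all genes, 21.6% of those tested and 37.4% of those with a mean from 10 to 500 rose, per the authors' deposited table. Dnaaf1 averaged 28.4 in GSK and 4.92 in SCLC, and Dnaaf3 44 in GSK and 8.53 in SCLC, per the authors' deposited table. The abundant Dnaaf5 had 966 in GSK and 1117 in SCLC (-0.21 ± 0.29, adjusted p = 0.618), and Dnaaf9 had 1461 in GSK and 974 in SCLC (0.58 ± 0.41, adjusted p = 0.278), per the authors' deposited table. Dnaaf9 passed when scaled to total counts (1.09, adjusted p = 0.0258), from the authors' deposited table. In SCLC against Normal, 2 of 8 (25%) fell and 1 (12.5%) rose, where 25.1% and 25.3% of all genes tested did, per the authors' deposited table. Dnaaf3 fell to 7.96 in SCLC, against 78.7 in Normal (-3.31 ± 0.69, adjusted p = 7.19e-06), and Dnaaf6b was at least 3.68-fold lower, per the authors' deposited table. Dnaaf2, a partner of heat shock protein 90 in arm assembly, rose instead, to 161 in SCLC, against 30.7 in Normal (2.39 ± 0.41, adjusted p = 4.25e-08), per the authors' deposited table. Of its exon bases, 38.7% overlap another gene on the same strand in the reference annotation, so its reads may be shared. Dnaaf4, listed at 0, has a larger overlap, 59.2% on the same strand and 37.4% on the opposite strand, so its count of 0 is uncertain. Cfap299 (19.1%) and Dnaaf10 (18.5%) are among those with smaller overlaps on the same strand. On the opposite strand Dnaaf2 has 32.7%, and Tekt2 (20.8%), Dnaaf1 (20.7%) and Ccdc39 (16.9%) are among those with less.

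By abundance, the 13 tested members with a mean of at least 500, among them Rsph3a, Rsph3b, Cfap20, Cfap36, Cfap97, Dnaaf5, Dnaaf9 and Dnaaf10, had a median log2 fold change of -0.28, with 2 that rose (Tppp3 and Cfap418) and 3 that fell, per the authors' deposited table. Of all 9806 genes tested at such means, 13.7% rose and 33.7% fell, with a median of -0.36, per the authors' deposited table, so the median of the abundant members lay near that of abundant genes in general. The 56 with a mean from 10 to 500 had a median of 2.77, against 0.72 over all genes in that range, per the authors' deposited table. The corresponding medians against Normal were 0.31 for the 12 tested members with a mean of at least 500 and -1.32 for the 46 in the lower range, against 0.20 and -0.10 over all genes, from the authors' deposited table. Among the 12, 1 rose and 4 fell, and of all 9680 genes at such means 38% rose and 28.6% fell, per the authors' deposited table. Over the group means, 5 members lay under the floor in GSK, 18 in SCLC of either table and 7 in Normal, each count with those listed at 0, from the authors' deposited tables. A level under the floor could not be told from 0 at this depth.

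**Figure D4:**
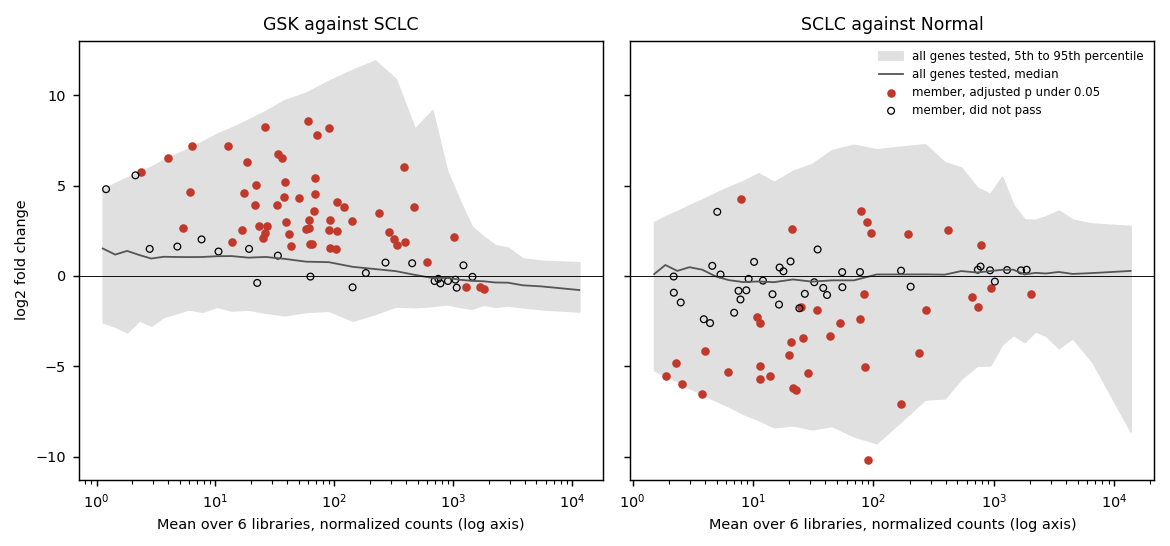
log2 fold change against the mean of normalized counts over 6 libraries (log axis) for axoneme genes tested, GSK against SCLC (left) and SCLC against Normal (right); the grey band and line are the 5th to 95th percentile and median of all genes tested in 30 bins of mean. After GSK most members with a mean from 10 to 500 lie above the median line, and the 13 of mean 500 or more have a median of -0.28, with Tppp3 (2.15) the highest of them and Cfap20 (-0.74) the lowest.

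Levels in GSK were also set beside those in Normal, after dividing GSK means by the ratio of the SCLC means in both tables (0.11 on the log2 scale). The tables were scaled separately, so no test was made. Of 81 members with a level, 65 stood higher in GSK and 16 higher in Normal, and 48 stood more than 2-fold higher in GSK against 7 more than 2-fold higher in Normal, from the authors' deposited tables. No share of all genes was computed for the 2-fold counts, so they describe the members only. With a mean of at least 10 in either table, 80.3% of 71 members and 55.4% of all 20341 genes were higher in GSK, from the authors' deposited tables. Taking genes whose mean reached 10 in either table and stayed under 500 in both, 87.9% of 58 members and 63.2% of all 9711 genes were higher in GSK than in Normal, from the authors' deposited tables. Ccdc39 had 805 in GSK and 110.5 in Normal, and Cfap65 had 709 in GSK and 37.7 in Normal, from the authors' deposited tables. Foxj1 was close, at 477 in GSK and 430.1 in Normal, from the authors' deposited tables. Dynlrb2 (48.3 in GSK, 182 in Normal), Cfap52 (37.3 in GSK, 334 in Normal), Cfap47 (3.83 in GSK, 55.5 in Normal) and Tekt5 (18 in GSK, 457 in Normal) stood lower in GSK, from the authors' deposited tables.

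Other genes of the motile cilium, from a list outside the name rule, are given for comparison. Of 37 tested after GSK, 28 (75.7%) rose and Gas8, of the nexin-dynein complex, fell (-1.13 ± 0.29), with a median log2 fold change of 2.90 (2.62 with bounds), per the authors' deposited table. Of all genes tested, 21.6% rose and 15.5% fell, per the authors' deposited table. Ccdc153 had 198 in GSK and was at least 198-fold higher, Spef2, of the central pair, at least 78.9-fold and Drc7, of the nexin-dynein complex, at least 52.2-fold, per the authors' deposited table. In SCLC against Normal, 19 of the 37 (51.4%) fell and 4 (10.8%) rose (Stk33, Ubxn10, Fam183b and Gas8), with a median of -2.39 (-2.20 with bounds), per the authors' deposited table. Of all genes tested, 25.1% fell and 25.3% rose there, per the authors' deposited table. Ccdc153 was at least 56.5-fold lower, Drc7 at least 17.9-fold and Spag17, of the central pair, at least 11.1-fold lower in SCLC, per the authors' deposited table. Transport genes serve every cilium, motile or not. Of 38 tested after GSK, 8 (21.1%) rose and 7 (18.4%) fell, with a median of 0.08, per the authors' deposited table. These shares lay near those of all genes tested, 21.6% and 15.5%. The transport genes were abundant, with sums of 40650 in GSK and 45270 in SCLC, and the lists were not matched for abundance. At means of 500 or more, the median was -0.36 over all genes and -0.28 over axoneme genes, per the authors' deposited table. Ift81 rose by 1.67 ± 0.35 and Arl13b by 1.25 ± 0.43, while Dync2i2 (-1.41 ± 0.25) and Ift43 (-1.39 ± 0.38) fell, per the authors' deposited table. Against Normal, 9 (23.7%) rose and 8 (21.1%) fell, with a median of 0.05, where 25.3% and 25.1% of all genes did, per the authors' deposited table.

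Regulators of the multiciliated fate divided. Of 13 tested after GSK, 4 (30.8%) rose and 1 (7.69%) fell, with a median of 1.15, where 21.6% and 15.5% of all genes did, per the authors' deposited table. Against Normal, 3 of 13 (23.1%) rose and 4 (30.8%) fell, with a median of -0.04, where 25.3% and 25.1% of all genes did, per the authors' deposited table. Mcidas and Gmnc, which start the programme in the nucleus, fell in SCLC against Normal per the authors' deposited table. Mcidas had 2.96 in SCLC and 61.2 in Normal (-4.37 ± 0.91, adjusted p = 6.71e-06), and Gmnc was at least 13.7-fold lower (adjusted p = 0.000173), per the authors' deposited table. After GSK, Mcidas had 5.54 in GSK and 3.26 in SCLC (0.76 ± 1.33, adjusted p = 0.701), and Gmnc had 3.02 in GSK and lay under the floor in SCLC (adjusted p = 0.159), per the authors' deposited table. Neither passed. Ccno, a cyclin-like gene next to Mcidas in the programme, fell in SCLC against Normal (-3.34 ± 0.49, adjusted p = 9.19e-11) and had 104 in GSK and 39.4 in SCLC (1.39 ± 0.74, adjusted p = 0.129) per the authors' deposited table. Of the RFX factors, Rfx3 averaged 1824 in GSK and 824 in SCLC and rose (1.15 ± 0.31, adjusted p = 0.00107), and Rfx2 did not pass (0.74 ± 0.35, adjusted p = 0.0833), per the authors' deposited table. Rfx3 was also higher in SCLC than in Normal (1.79 ± 0.32, adjusted p = 1.51e-07), and Rfx2 did not pass (-0.61 ± 0.33, adjusted p = 0.114), per the authors' deposited table. Myb rose in SCLC against Normal (5.35 ± 0.76) and had 1.02 ± 0.62 after GSK (adjusted p = 0.195) per the authors' deposited table. Trp73 had no adjusted p: its fold changes were -0.21 ± 0.81 after GSK and 4.48 ± 0.90 against Normal per the authors' deposited table. Cdc20b, of centriole amplification, was at least 14.2-fold higher after GSK, Foxn4 rose by 3.49 ± 0.73 and Ccdc78 by 1.62 ± 0.49, and E2f4 fell (-1.11 ± 0.24), per the authors' deposited table.

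**Figure D5:**
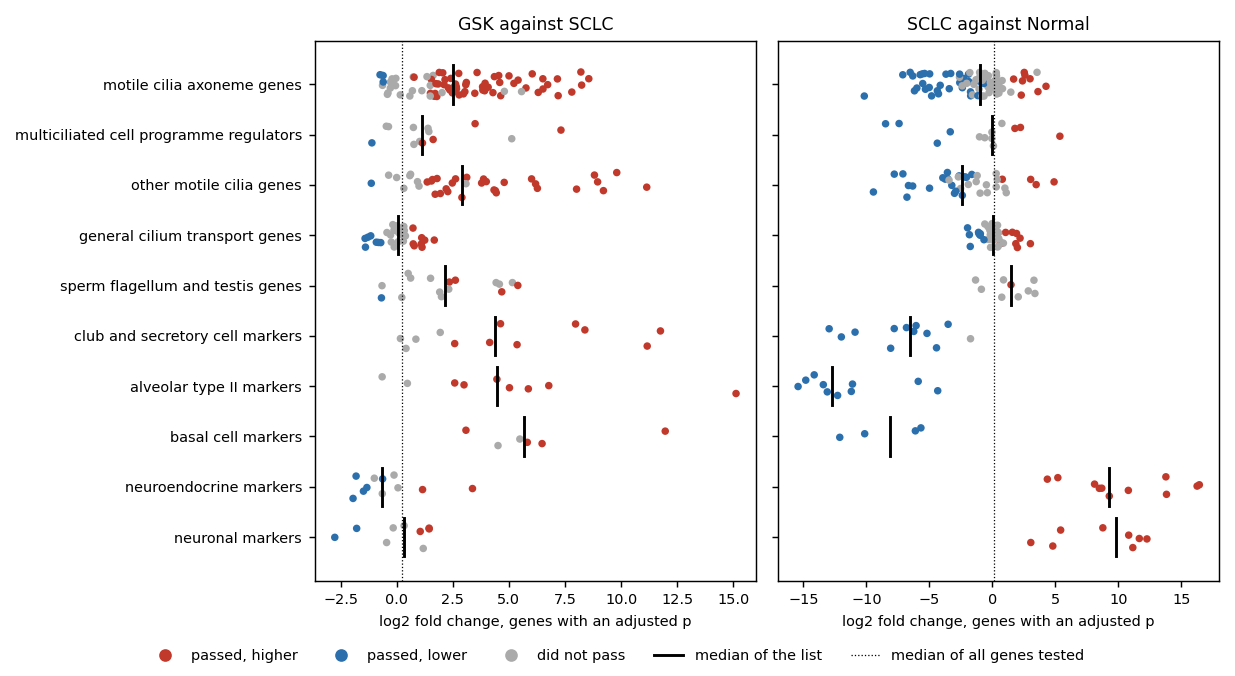
log2 fold change of each tested gene of the axoneme set and 9 other lists, GSK against SCLC (left) and SCLC against Normal (right); bars are list medians and the dotted line is the median of all genes tested. After GSK the axoneme set (median 2.51) and the other motile cilia genes (2.90) lie to the right. So do the sperm flagellum and testis genes (2.16), the multiciliated regulators (1.15), and the club, alveolar type II and basal cell markers. General transport genes centre near 0 (0.08), and the lists were not matched for abundance.

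Markers of normal lung epithelium moved with the axoneme genes, and their part in the result was not tested. For comparison, the authors' deposited table had 21.6% of all genes tested higher after GSK and 15.5% lower. For genes with a mean from 10 to 500, the authors' deposited table had 37.4% higher and 10.9% lower, and the marker lists were not matched for abundance. Of 12 club and secretory cell markers tested after GSK, 8 rose and 0 fell (8 and 0 at an unadjusted p under 0.05), and their summed level was 17063 in GSK and 1289 in SCLC, per the authors' deposited table. Of the 7 basal markers, 6 lay under the floor in SCLC and 1 in GSK, and of the 12 club markers 1 in SCLC and 0 in GSK, per the authors' deposited table. Scgb1a1, the club cell secretoglobin, averaged 5428 in GSK and 2.37 in SCLC (11.16 ± 0.74) per the authors' deposited table. Of 9 alveolar type II markers tested, 7 rose and 0 fell (7 and 0 at an unadjusted p under 0.05), with a summed level of 102179 in GSK and 5487 in SCLC, most of it Lyz2 (94202 in GSK, 2.64 in SCLC), a lysozyme gene that macrophages also express, per the authors' deposited table. Sftpc, the surfactant gene that defines alveolar type II cells, had 1858 in GSK and 232 in SCLC (adjusted p = 2.13e-18), per the authors' deposited table. Basal cell markers summed to 439 in GSK and 6.66 in SCLC, and 4 of 6 tested rose and 0 fell (5 and 0 at an unadjusted p under 0.05), per the authors' deposited table. Trp63, the factor that defines basal cells, was under the floor in both GSK and SCLC, and Krt17 (350.2 in GSK) made most of that sum, per the authors' deposited table. The same sums in SCLC and Normal were 1198 and 106515 for club, 5122 and 3193110 for alveolar type II and 6.26 and 3074 for basal markers, per the authors' deposited table. Single markers, chosen after their values were seen, did not all follow these sums: in the separately scaled tables, and so without a test, Lyz2 had 94202 in GSK and 108056 in Normal, Krt17 350.2 in GSK and 359.9 in Normal, and Muc5b 1625 in GSK and 791 in Normal, from the authors' deposited tables. The summed level of the 85 members was 23449 in GSK and 17242 in SCLC per the authors' deposited table of that comparison, and 15953 in SCLC and 17684 in Normal per the authors' deposited table of the other. Members with a mean of at least 500 made 13603 of that sum in GSK and 14954 in SCLC, from the authors' deposited table.

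Tumour markers fell in part after GSK. Of 11 neuroendocrine markers, 5 (45.5%) fell, among them Insm1 (-1.95 ± 0.27), and 2 (18.2%) rose, Calca and Neurod1, per the authors' deposited table. Over all genes tested, 15.5% fell and 21.6% rose, per the authors' deposited table. Chga, of secretory granules, had 24139 in GSK and 23222 in SCLC (0.06 ± 0.33, adjusted p = 0.919) per the authors' deposited table. Of 9 neuronal markers tested, 3 (33.3%) rose (Gap43, Map2 and Elavl4) and 2 (22.2%) fell (Stmn3 and Tubb3) after GSK per the authors' deposited table. Against Normal, all 11 neuroendocrine and all 8 tested neuronal markers rose, where 25.3% of all genes tested did, per the authors' deposited table. Genes of the sperm flagellum and testis were mostly low. Of 16 tested after GSK, 4 (25%) rose (Acr, Tex101, Odf4 and Tcp11) and Odf2, a centriole protein as well, fell (-0.68 ± 0.28), per the authors' deposited table. Their median log2 fold change was 2.16 (1.70 with bounds), with 14 of the 16 above 0. Of all genes tested, 21.6% rose, with a median of 0.24, per the authors' deposited table. The protamine and fibrous sheath genes Prm1, Prm2, Tnp1, Tnp2 and Akap4 were not called in either comparison in the authors' deposited tables.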

How the data were processed

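A stranded mRNA kit and paired reads of 150 bases were used, per the labels; STAR 2.7.9a and GRCm39 are named in the submitters' processing notes. Not given in the sources used here: counting tool and annotation. The authors deposited 2 comparison tables of 57010 genes each, laid out as DESeq2 results per the file headers, of which 33116 rows have a symbol. The deposited signal column is the mean of normalized counts over 6 libraries. The log2 columns hold the authors' fold change and its standard error, the score column the authors' statistic, and the p-value columns their unadjusted and adjusted p-value.

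Group means were implied from the mean and the fold change with 3 libraries a group. The control of the GSK table was taken as SCLC, because its implied means tracked those of SCLC over 13634 genes of mean 50 or more in both tables (SD of the log2 ratio 0.00837, against 2.02 for the other arm). Calls are the authors' adjusted p under 0.05, adjusted over all genes. Alternatives were Benjamini-Hochberg adjustment without the low-mean filter or over means of at least 50, scaling to total counts, centring, stricter thresholds and removal of a transcript length trend in 20 bins; the functions were tested on simulated data. Lengths and overlaps came from GENCODE M21 (GRCm38), promoters from RefSeq. Tools were Python 3.11.15, pandas 2.3.3 and scipy 1.17.1. The members and lists were chosen with earlier results of these data known. Named members were the 10 always named, up to 4 per role, direction and comparison whose change was largest once past the threshold, and the 2 most abundant per role. From the other lists, 7 regulators and up to 3 genes per direction were named. Dnah2, Dnah7c, Dnah14, Rsph9, Cfap43, Cfap45, Cfap47, Cfap54, Cfap58, Cfap65, Cfap69, Cfap97, Cfap99, Cfap418, Dnaaf10, Rsph6a, Cfap221, Tekt4, the markers Sftpc and Muc5b, the sperm genes Odf4, Prm1, Prm2, Tnp1, Tnp2 and Akap4, and all members listed at 0 were named after their values were seen. Of the fixed lists, Nme9, Cimap3, Tctex1d4, Ift25, Ift56, Ift70a1 and Ift70b had no row of that symbol. Columns of single libraries left unused numbered 0. The values of 1 neuroendocrine marker are not reported here.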

Additional observations from a re-analysis of the deposited data

How the results depend on the processing

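The count of members higher after GSK (54) stayed within 1.5 times of its value without the low-mean filter, under both other scalings, at an adjusted p under 0.01 and after removal of the length trend. With a mean of at least 50, 30 of 44 tested members rose (median 1.82), and a test against an absolute log2 fold change of 1 left 33 higher. The 3 members that fell after GSK, Rsph3a, Rsph3b and Cfap20, left a count of 0 under scaling to total counts, centring on the median of genes of mean 100 or more, an adjusted p under 0.01, the test against 1 and removal of the length trend (4 fell at an unadjusted p under 0.05 in the authors' deposited DESeq2-style table). In SCLC against Normal, a mean of at least 50 left 12 lower, with fewer members tested. The median over the 30 members of such means was -0.053, against -1.0 over all 78 tested, so it depended on the abundance of the members included. The test against 1 left 17 lower and 5 higher. The log2 ratio of total counts was -0.51 for GSK over SCLC and -0.09 for SCLC over Normal, so scaling to totals raised every fold change after GSK by that size (median of members 3.02). In SCLC against Normal, Cfap161, Dnali1 and Dnah7a lost their call without the low-mean filter (adjusted p of 0.0545, 0.0549 and 0.0638). No called named gene changed direction under these alternatives. No paired analysis was possible because the tables hold no single library, and for the same reason leaving out replicates and the DESeq2 and edgeR fits were not run. Depth limits the 18 members under the floor in SCLC, whose fold changes are bounds where given, and group means carry no error.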
